A study of Mus musculus with 9 samples.

Results

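The Hox genes are homeobox transcription factors that lie in 4 clusters, Hoxa, Hoxb, Hoxc and Hoxd, with up to 13 paralogue positions in each. Members were the non-control spots of the arrays whose gene name consists of Hox, a cluster letter and a paralogue number. They came to 38 genes of the 27597 named on the array, read by 50 of its 41174 probes and 59 of its 43379 non-control spots. Of the 39 mouse genes that RefSeq names in the same way, Hoxc11 had no probe under this rule. The members comprised 11 genes of cluster a, 10 of b, 8 of c and 9 of d. By paralogue number, 12 were anterior (1 to 4), 11 central (5 to 8) and 15 posterior (9 to 13).

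Hox proteins give cells their position along the body axis. The genes of a cluster lie on the chromosome in the order in which they are switched on from head to tail, and the posterior genes also pattern the segments of the limb. Polycomb and trithorax proteins keep the pattern in place, Cdx factors and retinoic acid help to set it up, and the Meis and Pbx proteins bind DNA together with Hox proteins. Fibroblasts and muscle stem cells of adult tissue are known to retain Hox expression that reflects where in the body they lie.

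RNA was measured on 9 single-colour arrays, 3 for each of 3 groups. The iPax3 and iPax7 groups were progenitors made from pluripotent stem cells that express Pax3 or Pax7, paired-box factors of muscle progenitors. They had been engrafted in vivo and were re-isolated as mononucleated cells from the tibialis anterior, a hindlimb muscle, with the strain given as NSG/NSGmdx4cv. The third group was satellite cells of adults, which are the stem cells that reside in muscle, from the same muscle of Pax7-ZsGreen mice. All groups were labelled 3 months-old, and each sample held 1500 sorted cells whose RNA was amplified with the SuperAmp method before Cy3 labelling. The labels speak of 3 mice for each line and 3 independent experiments, and give neither the gate of the sort, the mice behind each array, nor whether each line is a single clone. The p-values therefore measure the spread between these arrays, and the number of arrays limits the precision.

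Levels are log2 processed signals with the 75th percentile of each array set to 0, so that 1 unit is a doubling, and values after ± are SD over 3 arrays for group means and standard errors for differences. Levels of different probes are not on the same scale, since probes differ in how well they bind, and each probe is compared only with itself between groups. A probe was called well above background when it passed the scanner software's own flag, set at 13 standard deviations of the background. Between 27 and 33 Hox genes had a probe well above background on an array, with 30 to 31 in iPax3, 28 to 30 in iPax7 and 27 to 33 in satellite cells. The share of all probes that passed on an array ran from 56.5% (iPax7 replicate 1) to 79.7% (satellite replicate 1), and satellite replicate 1 also had the highest count of Hox genes. Anterior genes numbered 8 to 10 on the re-isolated and 9 to 10 on the satellite arrays, and posterior genes 12 to 14 and 11 to 15. Central genes numbered 8 on each iPax3 array, 7 on each iPax7 array and 6 to 9 on the satellite arrays, so that the lines did not overlap in this class, a difference that was not tested.

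**Figure D1:**
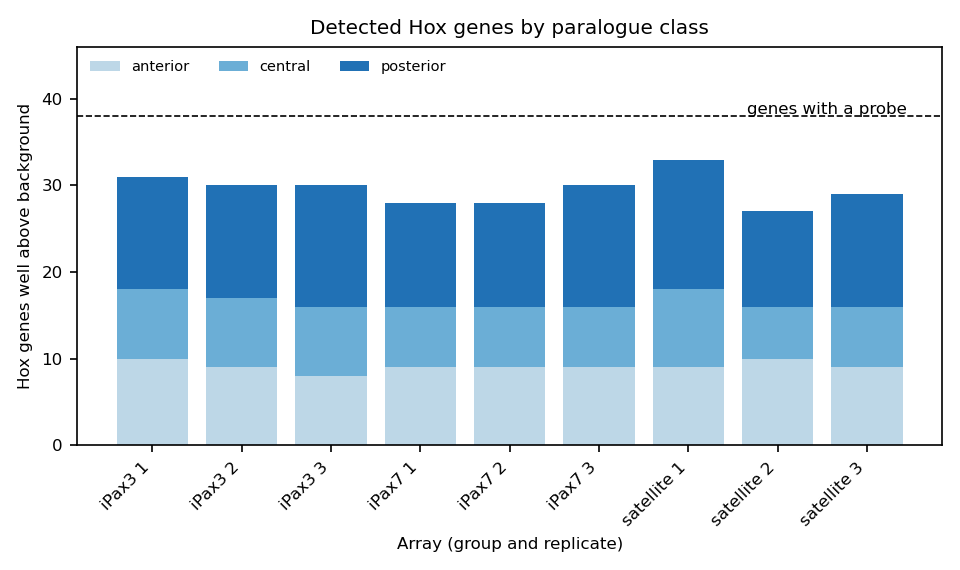
Number of Hox genes with a probe well above background (y axis) on each of the 9 arrays (x axis), stacked by paralogue class, with a dashed line at the 38 genes that have a probe. Every array held between 27 and 33 of them, with anterior, central and posterior genes on all arrays.

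The labels separated the groups in marker genes as well. Of 13 tested genes of a satellite cell list, 13 lay lower in the re-isolated cells than in satellite cells and 4 of them passed the test, Chrdl2, Des, Fgfr4 and Heyl. The summed level of that list was 5.64 to 5.95 on the iPax3 arrays, 5.28 to 6.45 on the iPax7 arrays and 7.70 to 8.27 on the satellite arrays. Of 15 genes of fibro-adipogenic progenitors and fibroblasts, 14 lay higher and 11 passed, with a summed level of 8.98 to 9.995 in iPax3, 9.56 to 10.4 in iPax7 and 6.22 to 7.44 in satellite cells. All 15 of these genes were well above background on every re-isolated array and 13 to 15 on a satellite array. Of all genes tested, 45.6% were higher over both lines and 1.04% passed. Fewer cells of a type and less RNA per cell cannot be told apart in such samples. Strain, slide and scan day also differed between re-isolated and satellite cells, and cannot be told apart from the groups. The part of any of these in the Hox values was not tested.

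The comparison of engrafted cells with satellite cells asks how close the re-isolated cells came to the adult stem cells of the same muscle. In the Hox genes, levels were lower in re-isolated cells for most members, with a median difference of -0.75 over both lines (1 unit is a doubling), but no member passed the test. Hoxc12, Hoxc10, Hoxa9 and Hoxc9, all posterior, had the lowest differences, followed by the central genes Hoxc6 and Hoxa5 at -2.11 each. A second Hoxc10 probe gave -0.88. Hoxc12, Hoxc9 and Hoxd9 were lower on all 6 re-isolated arrays than on any satellite array. Such non-overlap held for 3 of 32 members, all lower, and for 8.5% of all genes, 4.36% lower. A probe on the opposite strand beside Hoxb2 was higher on all 6 re-isolated arrays. Among the partners of Hox proteins, Meis1 was higher in re-isolated cells and passed the test, but the call was lost in 15 of 20 other settings and a second Meis1 probe gave a difference of 0.85 (limma, adjusted p = 0.718).

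After probes detected (well above background) on fewer than 3 of the 9 arrays were dropped, 32 Hox genes and 22694 genes in all were tested with limma. Hoxb1, Hoxb2 (sense probe), Hoxb7, Hoxc8, Hoxd1 and Hoxd11 did not pass the filter. At a Benjamini-Hochberg adjusted p of 0.05, limma called 0 of the 32 in iPax3 against satellite cells (0.432% of all genes called), 0 in iPax7 against satellite cells (0.533%), 0 in both lines against satellite cells (1.04%) and 0 in iPax7 against iPax3 (0%). At an unadjusted p under 0.05, limma counted 8 Hox genes for iPax3 against satellite cells, 2 higher and 6 lower, where 12.4% of all genes passed, 6.8% higher and 5.64% lower. The corresponding count for iPax7 was 4, of which 1 was higher and 3 lower, where 12.4% of all genes passed, 6.83% higher and 5.58% lower. For both lines together it was 8, of which 1 was higher and 7 lower, where 15.4% of all genes passed, 8.07% higher and 7.31% lower. Between the lines it was 2, with 1 higher and 1 lower in iPax7, where 4.1% of all genes passed, 1.74% higher and 2.36% lower.

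Of the 32 genes, 10 had a higher and 22 a lower mean in iPax3 than in satellite cells, where 45.3% of all genes were higher. In iPax7 the split was again 10 higher and 22 lower (45.9% of all genes higher), and for both lines together as well (45.6%). The lines had median differences of -0.91 and -0.85, beside -0.19 and -0.15 over all genes tested. With the 75th percentile taken over detected probes the iPax3 median was -0.53, and over the settings tried the iPax7 median ran from -0.99 to -0.58. The satellite arrays are common to these comparisons, so the counts are not independent of each other. For both lines together the median was -0.75, beside -0.16 over all genes. The 14 tested posterior genes had a median difference of -1.41 for both lines together and 10 of them were lower. The 9 anterior genes had a median of -0.20 with 5 lower, and the 9 central genes -0.68 with 7 lower. By cluster, the median was -0.76 for the 11 genes of cluster a, -0.64 for the 7 of b, -2.11 for the 7 of c and -0.48 for the 7 of d. In cluster c, 6 of 7 genes were lower. These medians describe the members and were not tested.

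**Figure D2:**
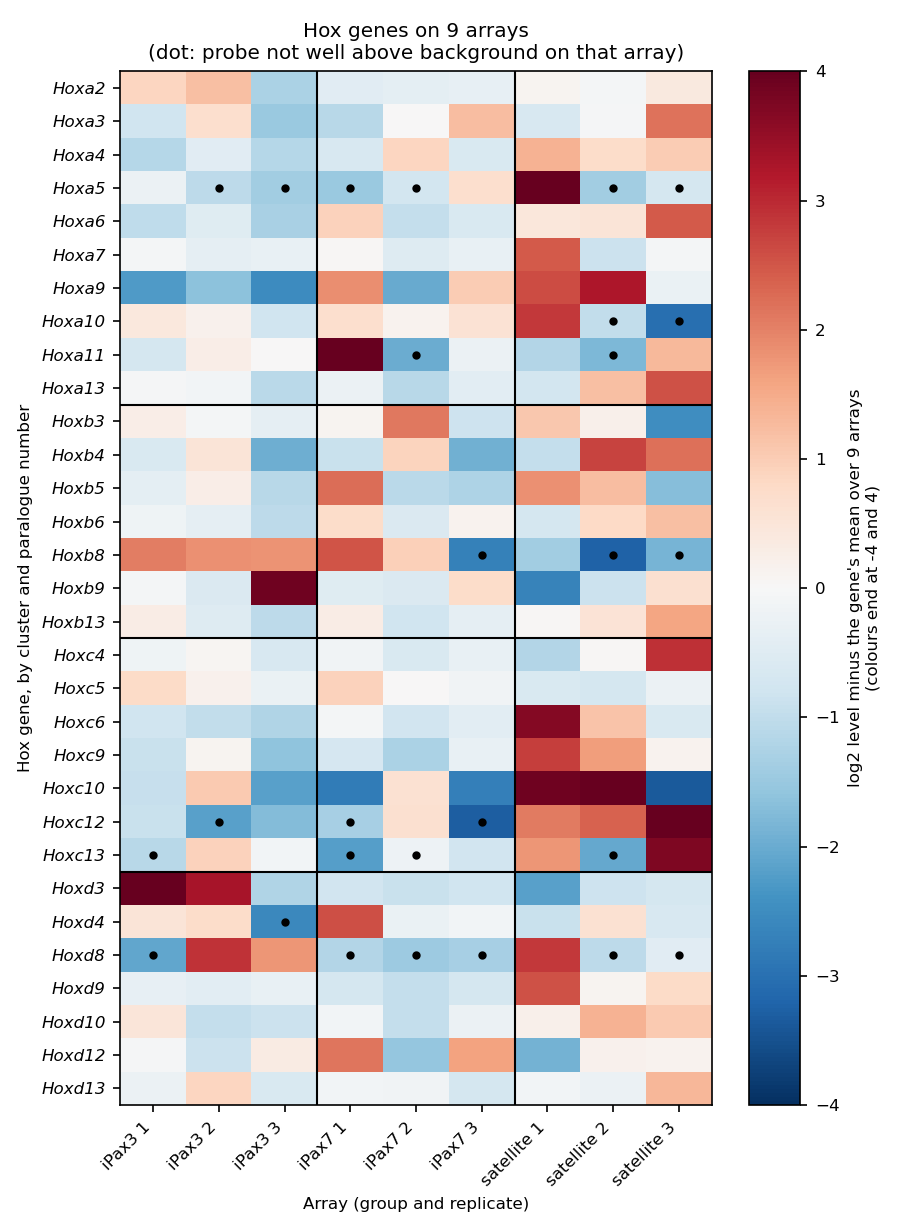
Level of 31 of the 32 tested Hox genes (rows, by cluster and paralogue number) on each of the 9 arrays (columns), as the log2 difference from that gene's mean over the 9 arrays, with a dot where the probe was not well above background. The satellite columns are redder than the others for Hoxc9 and Hoxc12, while single arrays stand out for Hoxa5, Hoxa11 and Hoxb9.

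**Figure D3:**
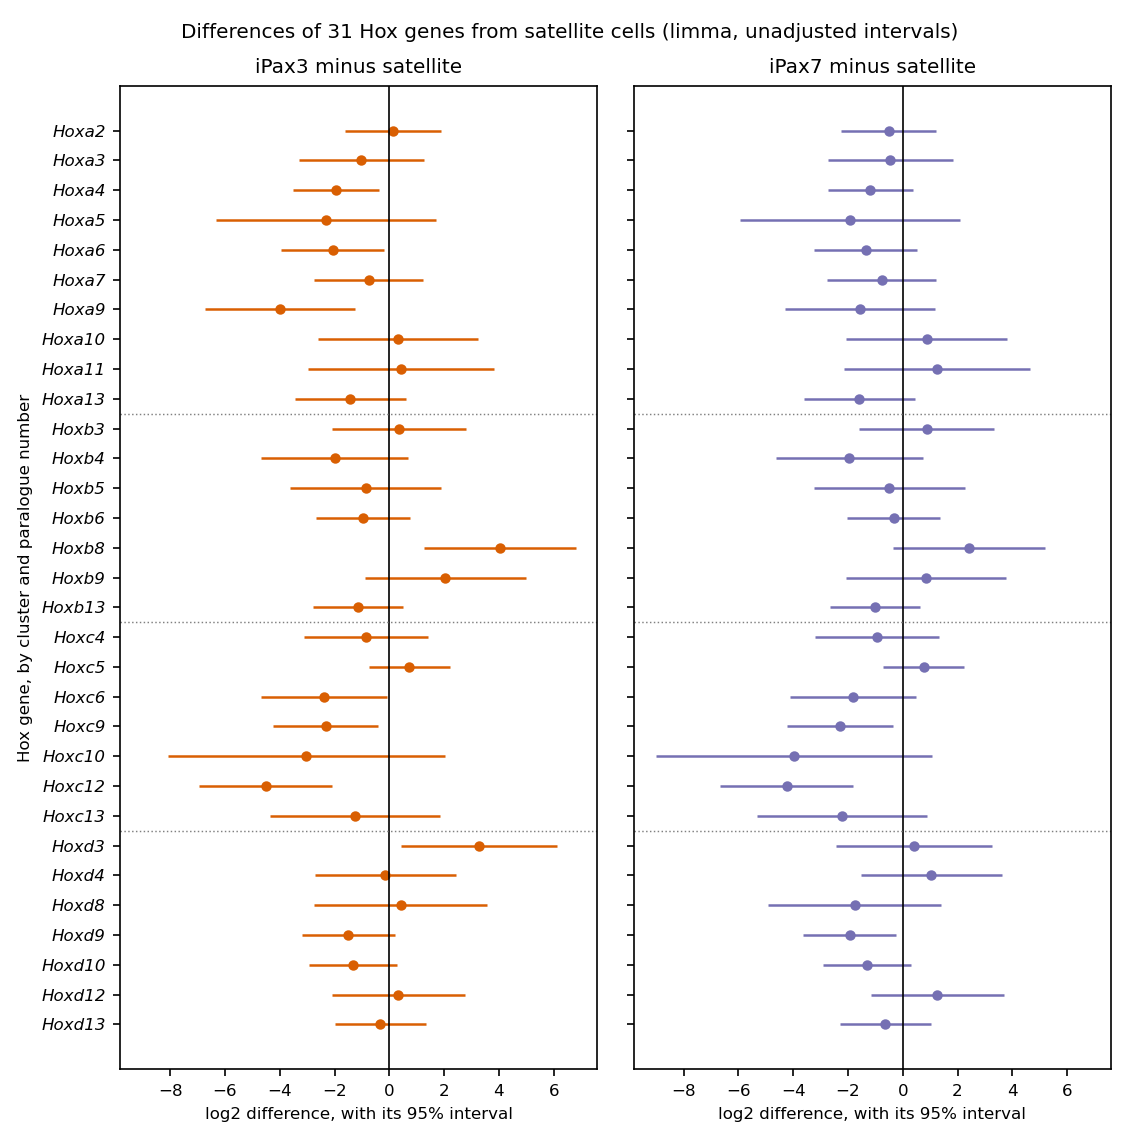
Difference of iPax3 (left) and iPax7 (right) from satellite cells in log2 units (x axis) for 31 of the 32 tested Hox genes (y axis, by cluster and paralogue number), as points with the fit's 95% interval, not adjusted for the number of genes. Most points lie left of 0, and the interval for Hoxc12 lies below 0 in both panels.

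The sequences of the probes behind the main values are shown because Hox genes share their homeobox, the stretch that codes for the DNA-binding homeodomain. Each probe is 60 bases long. The sense probes of Hoxc12, Hoxd10 and Hoxd9 shown here lie in homeobox sequence. Coordinates are those of the mouse build mm8 that the files name, and each sequence runs 5′ to 3′ on the probe's strand. Capitals mark 12 bases that the probes of Hoxc12 and Hoxd10 share with each other and with that of Hoxa9.
Hoxc12 (chr15:102766422-102766481, plus strand): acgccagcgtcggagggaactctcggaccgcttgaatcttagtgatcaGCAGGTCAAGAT
Hoxd10 (chr2:74495062-74495121, plus strand): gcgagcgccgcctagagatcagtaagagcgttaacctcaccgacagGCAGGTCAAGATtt
Hoxd9 (chr2:74500115-74500174, plus strand): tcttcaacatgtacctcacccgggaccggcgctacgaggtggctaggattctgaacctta
Hoxb2, opposite strand (chr11:96166636-96166695, minus strand): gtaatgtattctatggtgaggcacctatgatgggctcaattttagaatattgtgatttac
The shared run GCAGGTCAAGAT was found, on either strand, in 3 of the 41174 probes of the array (0.00729%), all of them the Hox probes named. Of 1213 pairs of Hox probes for different genes, 1209 shared fewer than 12 bases in a row. Whether RNA of a paralogue bound to these probes was not tested. The probe listed for Hoxb3 also names a Hoxd3 transcript among its accessions. The last sequence lies on the strand opposite to the genes of cluster b, 3203 bases before the Hoxb2 sense probe. It is among the 50 Hox probes, but was kept apart from Hoxb2 in the tests and in the counts of detected genes. RefSeq names a noncoding gene, Hoxb3os, that overlaps Hoxb2. Which transcript this probe reads was not tested.

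Hoxc12 is a posterior gene known from the tail and the late limb bud. Its level was -4.08, -5.37 and -4.92 on the iPax3 arrays, -4.52, -2.54 and -6.48 on the iPax7 arrays and -1.11, -0.82 and 1.12 on the satellite arrays. All 3 satellite arrays were above every re-isolated array, and the probe was well above background on 2, 1 and 3 arrays of iPax3, iPax7 and satellite cells. Over both lines the difference was -4.38 ± 0.94 (limma, adjusted p = 0.073), with the same direction in iPax3 (-4.52 ± 1.08, adjusted p = 0.137) and iPax7 (-4.24 ± 1.08, adjusted p = 0.165). The gene passed with the deposited value table in place of the scanner signals, where the difference over both lines was -3.01 (limma, adjusted p = 0.0307). Over the other settings tried, the adjusted p for both lines ran up to 0.402, and normexp background correction gave a difference of -2.20.

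Hoxc9, a posterior gene of the trunk that specifies thoracic motor neurons, showed the same order. Its level was -1.63, -0.63 and -2.35 on the iPax3 arrays, -1.43, -2.01 and -1.04 on the iPax7 arrays and 2.03, 0.94 and -0.60 on the satellite arrays. The lowest satellite array, at -0.60, lay just above the highest re-isolated array, at -0.63, so the separation of the groups was narrow. The difference over both lines was -2.30 ± 0.74 (limma, adjusted p = 0.202).

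Hoxd9 acts with Hoxa9 in the upper limb segment. Its level was -2.45, -2.55 and -2.44 on the iPax3 arrays, -2.83, -3.07 and -2.84 on the iPax7 arrays and 0.42, -2.02 and -1.35 on the satellite arrays. The re-isolated arrays lay close together and all below the lowest satellite array, with a difference over both lines of -1.71 ± 0.65 (limma, adjusted p = 0.267), or -1.01 without satellite replicate 1. A second probe of Hoxd9 gave -2.10 ± 0.68 (limma, adjusted p = 0.224) and also had no overlap of re-isolated and satellite arrays. That probe was not well above background on any iPax7 array. With these processed signals, its satellite mean was at least 1.51-fold higher than in iPax7. All 3 iPax7 arrays of the first probe lay below the iPax3 arrays, by -0.44 ± 0.75 at the mean (limma, adjusted p = 0.99998), while on the second probe the lines overlapped.

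Hoxc12, Hoxc9 and Hoxd9 were the 3 of 32 members whose 6 re-isolated arrays did not overlap the satellite arrays, all lower, where 8.5% of all genes had no overlap, 4.14% higher and 4.36% lower.

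The opposite-strand probe beside Hoxb2 went the other way. Its level was -0.34, -0.38 and -0.27 on the iPax3 arrays, -1.88, -2.22 and -0.73 on the iPax7 arrays and -4.84, -3.77 and -3.35 on the satellite arrays. All 9 arrays were well above background and the 3 groups did not overlap, with iPax3 highest and satellite cells lowest. The difference from satellite cells was 3.02 ± 0.62 over both lines (limma, adjusted p = 0.0626), 3.66 ± 0.71 in iPax3 (adjusted p = 0.0774) and 2.38 ± 0.71 in iPax7 (adjusted p = 0.23). With normexp background correction these were 1.39, 1.85 and 0.92. It passed for both lines and for iPax3 when the 75th percentile was taken over the probes detected on all arrays (limma, adjusted p = 0.0281 and 0.0319) and when the fit was limited to probes detected on all arrays (0.0332 and 0.042). The sense probe of Hoxb2, a gene of the hindbrain, was well above background on 1, 0 and 1 arrays and showed means of -4.58 ± 2.96 in iPax3, -5.21 ± 0.95 in iPax7 and -4.82 ± 3.02 in satellite cells.

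**Figure D4:**
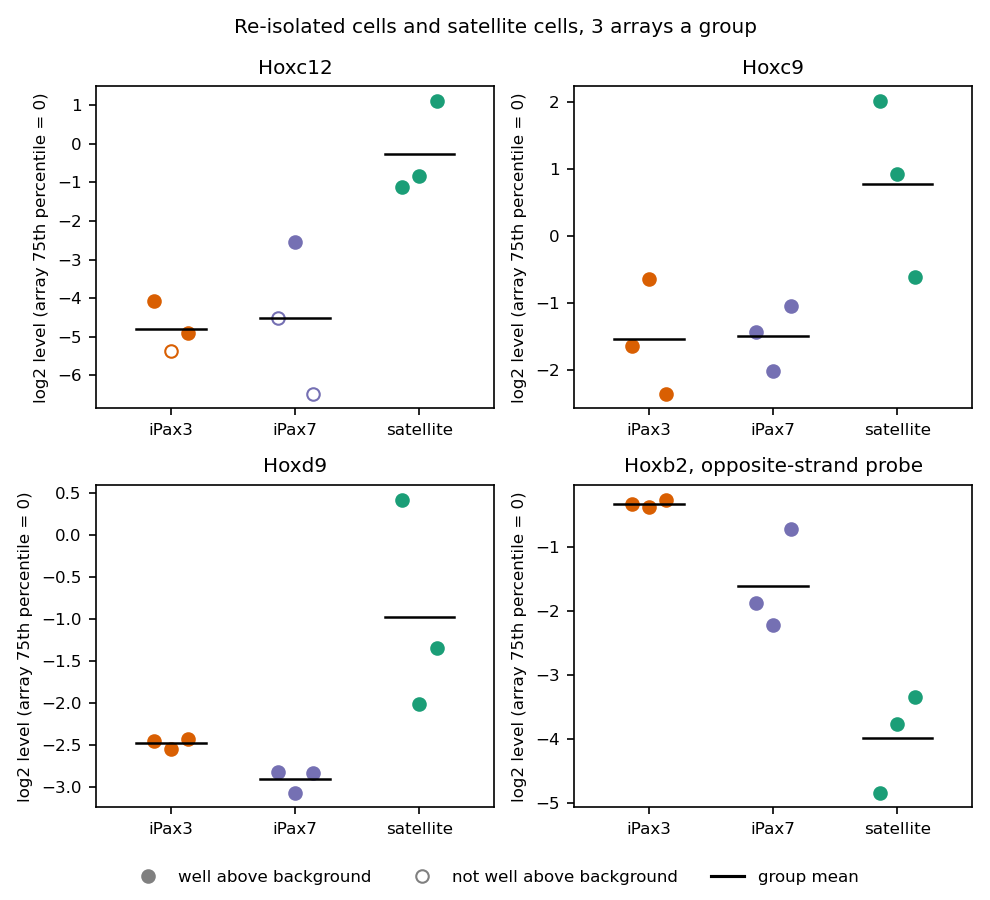
Level on each array (y axis, log2 with the array's 75th percentile at 0) of Hoxc12, Hoxc9, Hoxd9 and the opposite-strand probe beside Hoxb2 in the 3 groups (x axis). Open points were not well above background, and lines are group means. The satellite points lie above all re-isolated points for the 3 genes and below all of them for the opposite-strand probe.

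Single lines gave further separations. In iPax3, 8 of 32 members did not overlap the satellite arrays, 1 higher and 7 lower, where 19% of all genes did not overlap, 8.61% higher and 10.4% lower. Besides the genes above, Hoxa4 (-1.95 ± 0.69), Hoxa6 (-2.07 ± 0.83), Hoxa9 (-3.99 ± 1.21) and Hoxc6 (-2.39 ± 1.02) were lower and Hoxb8 (4.04 ± 1.23) was higher. Their adjusted p in limma ran from 0.238 (Hoxb8) to 0.38 (Hoxc6). The difference of Hoxc6 was -1.25 without satellite replicate 1, and normexp background correction gave 1.41 for Hoxb8 and -1.29 for Hoxa4. In iPax7, 7 members did not overlap, 1 higher and 6 lower, where 16.5% of all genes did not overlap, 7.63% higher and 8.89% lower. Hoxa2 (-0.52 ± 0.78), Hoxd8 (-1.76 ± 1.40) and Hoxd10 (-1.31 ± 0.71) joined the lower genes and Hoxc5 (0.77 ± 0.66) was higher, with adjusted p in limma between 0.494 (Hoxd10) and 0.819 (Hoxa2). The difference of Hoxd8 was -0.56 without satellite replicate 1, that of Hoxc5 was 0.44 without iPax7 replicate 1, and that of Hoxa2 was -0.29 with the percentile over detected probes. Hoxd8 was well above background on 2 iPax3 arrays, 0 iPax7 arrays and 1 satellite array, and no fold is stated.

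The comparison of iPax7 with iPax3 asks whether the factor used to make the cells left a difference in the Hox genes. Of 32 genes, 20 had a higher mean in iPax7 (53.3% of all genes were higher), with a median difference of 0.09 beside 0.07 over all genes. The split depended on the arrays and the scaling: without iPax7 replicate 1, 17 of 32 were lower with a median of -0.15, and with the percentile over detected probes 17 of 32 were lower with a median of -0.06. Hoxc6 and Hoxd9 were the 2 members whose lines did not overlap, 1 higher and 1 lower in iPax7, where 9.35% of all genes did not overlap, 4.45% higher and 4.89% lower. Hoxc6, a gene of the thoracic region and the forelimb level, was at -4.16, -4.34 and -4.57 on the iPax3 arrays, -3.43, -4.12 and -3.79 on the iPax7 arrays and 0.31, -2.22 and -3.99 on the satellite arrays. Its 3 iPax7 arrays lay above the 3 iPax3 arrays by 0.57 ± 1.02 at the mean (limma, adjusted p = 0.99998, 95% interval -1.72 to 2.87), and satellite replicate 3 was inside the iPax7 range. The iPax3 arrays and iPax7 replicate 1 shared a slide. With slide as a block, a setting added after the data were seen that rests on that slide alone, the difference was 0.92 for Hoxc6, -0.35 for Hoxd9 and -1.55 for the opposite-strand probe, with limma's adjusted p at 0.669, 0.876 and 0.545.

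Of the 2 genes with an unadjusted p under 0.05 between the lines, Hoxd3 is given in full, named after its values were seen. Hoxd3, a gene of the neck vertebrae, was at 2.88, 2.16 and -2.34 on the iPax3 arrays, -1.90, -2.05 and -1.94 on the iPax7 arrays and -3.31, -1.97 and -1.84 on the satellite arrays. Replicates 1 and 2 of iPax3 were high and the other 7 arrays lay between -3.31 and -1.84, which gave -2.86 ± 1.26 (limma, adjusted p = 0.99998). It was -1.87 without iPax3 replicate 1 and -4.48 without iPax3 replicate 3. A second Hoxd3 probe, which did not pass the filter, was at -7.25, -5.14 and -7.33 on the iPax3 arrays. That probe was well above background on satellite replicate 1 alone.

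Among the re-isolated arrays, iPax7 replicate 1 held the highest value for 14 of the 32 genes, where the same array was highest for 29.1% of all genes tested. Its summed level of 10 endothelial markers was 5.996 and that of 10 leukocyte markers 6.18, the highest of the 9 arrays in both lists, against 2.25 to 4.48 and 2.78 to 4.84 on the other re-isolated and satellite arrays. The same array was also highest for fibro-adipogenic progenitors and fibroblasts (10.4) and for pericytes and smooth muscle (6.69). For satellite cell markers (6.45) it was the highest re-isolated array. For tenocytes (3.76) and glia (3.71) it was not the highest. The part of any of these cell types in its Hox values was not tested.

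The remaining anterior genes are described by their group means. Hoxa2, a gene of the hindbrain and branchial arches, had means of -2.63 ± 1.34 in iPax3, -3.26 ± 0.05 in iPax7 and -2.75 ± 0.24 in satellite cells, with the probe above background on all 9 arrays. Hoxa3, which acts in the pharyngeal pouches, had means of -1.13 ± 1.103 in iPax3, -0.56 ± 1.17 in iPax7 and -0.11 ± 1.48 in satellite cells. Hoxa4, a gene of the neck region, was measured at -3.39 ± 0.38 in iPax3, -2.62 ± 0.86 in iPax7 and -1.44 ± 0.33 in satellite cells. All 3 were well above background on 9 arrays, and only Hoxa4 had its iPax3 arrays below the satellite arrays. Hoxb3, expressed in the hindbrain, had means of -0.88 ± 0.31 in iPax3, -0.36 ± 1.51 in iPax7 and -1.23 ± 1.86 in satellite cells, and Hoxb4, known to expand blood stem cells, of -1.40 ± 1.24 in iPax3, -1.36 ± 1.42 in iPax7 and 0.59 ± 1.98 in satellite cells. Hoxc4 had means of -2.46 ± 0.37 in iPax3, -2.55 ± 0.23 in iPax7 and -1.61 ± 2.10 in satellite cells. These probes were detected on 9 arrays each, and for all 3 the satellite SD was at least 1.86. Hoxd4, a gene of the neck vertebrae, was detected on 2, 3 and 3 arrays, with means of -3.79 ± 1.85 in iPax3, -2.60 ± 1.60 in iPax7 and -3.64 ± 0.81 in satellite cells. Hoxb1, which marks a segment of the hindbrain, did not reach the background flag as a probe on any array; of its 10 spots per array 1 passed on iPax7 replicate 2 and 1 on satellite replicate 3. Hoxd1 did not pass on any array either. The measured means of these were -7.37 ± 0.23 in iPax3, -6.79 ± 0.63 in iPax7 and -6.39 ± 1.68 in satellite cells for Hoxb1 and -6.83 ± 0.65 in iPax3, -6.64 ± 0.55 in iPax7 and -7.02 ± 0.92 in satellite cells for Hoxd1. No direction is given for genes below background.

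Among the central genes, Hoxa5, a gene of the lung and the neck to trunk border, was detected on 1, 1 and 1 arrays, with means of -5.78 ± 0.59 in iPax3, -5.40 ± 1.101 in iPax7 and -3.49 ± 4.25 in satellite cells. Satellite replicate 1 alone, at 1.40, set its satellite mean. Hoxa6 had means of -1.70 ± 0.41 in iPax3, -0.98 ± 0.996 in iPax7 and 0.37 ± 1.15 in satellite cells and Hoxa7 of -2.29 ± 0.15 in iPax3, -2.30 ± 0.28 in iPax7 and -1.54 ± 1.74 in satellite cells, both detected on 9 arrays. Both are genes of the trunk, and for Hoxa7 again satellite replicate 1 was the highest array. Hoxb5 had means of -2.31 ± 0.68 in iPax3, -1.92 ± 1.96 in iPax7 and -1.44 ± 1.89 in satellite cells, detected on 9 arrays. Hoxb8, known from myeloid progenitors of the blood, was detected on 3, 2 and 1 arrays, with means of -1.12 ± 0.13 in iPax3, -2.74 ± 2.67 in iPax7 and -5.16 ± 0.95 in satellite cells. Its 3 iPax3 arrays lay close together, whereas iPax7 replicate 3 was not above background. A second Hoxb8 probe, which did not pass the filter, was at -5.19, -6.27 and -7.62 on the iPax3 arrays. That probe was well above background on iPax3 replicate 1 alone. Hoxc5 had means of -0.91 ± 0.52 in iPax3, -0.87 ± 0.57 in iPax7 and -1.64 ± 0.25 in satellite cells, and was detected on 9 arrays, with iPax3 replicate 3 just below satellite replicate 3. Hoxd8 was detected on 2, 0 and 1 arrays, with means of -4.21 ± 2.61 in iPax3, -6.38 ± 0.14 in iPax7 and -4.63 ± 2.09 in satellite cells. Hoxb7 was detected on none of the 9 arrays (measured means -6.80 ± 1.17 in iPax3, -6.77 ± 0.83 in iPax7 and -6.69 ± 2.09 in satellite cells). Hoxc8, a gene of the forelimb level, was above background on satellite replicate 3 alone, with measured means of -7.30 ± 0.12 in iPax3, -6.23 ± 0.36 in iPax7 and -5.23 ± 2.02 in satellite cells. Neither gave a bound above 1, so no fold is stated.

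The posterior genes are those known from the limb and the hind part of the body. Hoxa9, which acts in blood progenitors and the upper limb, was at -1.94, -1.31 and -2.18 on the iPax3 arrays, 2.18, -1.70 and 1.33 on the iPax7 arrays and 2.93, 3.56 and 0.04 on the satellite arrays. All satellite arrays were above all iPax3 arrays, while iPax7 replicates 1 and 3 fell within the satellite range. The difference was -3.99 ± 1.21 in iPax3 (limma, adjusted p = 0.24) and -1.57 ± 1.21 in iPax7 (adjusted p = 0.635), where it was -0.42 without iPax7 replicate 2. Hoxa10, which patterns the lumbar region, was detected on 3, 3 and 1 arrays, with means of -3.77 ± 0.65 in iPax3, -3.23 ± 0.29 in iPax7 and -4.10 ± 2.96 in satellite cells. Hoxa11, required for the lower limb bones, was detected on 3, 2 and 2 arrays, with means of -3.85 ± 0.50 in iPax3, -3.02 ± 3.24 in iPax7 and -4.28 ± 1.63 in satellite cells. In these genes 1 array of a group was far from the others, satellite replicate 1 for Hoxa10 and iPax7 replicate 1 for Hoxa11, at -0.88 and 0.58.

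Hoxb9, a gene of the rib cage, had means of -0.49 ± 2.45 in iPax3, -1.68 ± 0.75 in iPax7 and -2.53 ± 1.66 in satellite cells, detected on 9 arrays. Its iPax3 mean was set by replicate 3, at 2.33. Hoxb13, a gene of the tail and prostate, had means of 1.53 ± 0.68 in iPax3, 1.67 ± 0.55 in iPax7 and 2.69 ± 0.78 in satellite cells, with the satellite mean above both lines by an amount that did not pass the test (adjusted p = 0.438 in limma over both lines), with a difference of -1.09, or -0.66 without satellite replicate 3. Hoxc13, required for hair and nails, was detected on 2, 1 and 2 arrays, with means of -4.17 ± 1.02 in iPax3, -5.12 ± 1.03 in iPax7 and -2.91 ± 2.94 in satellite cells. Hoxd10, which specifies lumbar motor neurons, had means of -2.71 ± 0.80 in iPax3, -2.70 ± 0.46 in iPax7 and -1.39 ± 0.60 in satellite cells, and satellite replicate 1 was inside the iPax3 range. Hoxd12 of the digits had means of -1.65 ± 0.61 in iPax3, -0.72 ± 1.99 in iPax7 and -1.98 ± 1.17 in satellite cells. The last 2 were detected on 9 arrays. Hoxd11, required for the forearm bones, was detected on 0, 1 and 1 arrays and was not tested, with measured means of -7.03 ± 0.80 in iPax3, -5.38 ± 1.15 in iPax7 and -5.55 ± 1.75 in satellite cells.

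For each cluster the probe with the highest mean over the arrays is given in full. Hoxa13, a gene of hand and foot, was at 3.75, 3.68 and 2.74 on the iPax3 arrays, 3.56, 2.71 and 3.38 on the iPax7 arrays and 3.06, 5.01 and 6.36 on the satellite arrays. Satellite replicates 2 and 3 were above all re-isolated arrays and satellite replicate 1 was among them (both lines -1.50 ± 0.78, limma, adjusted p = 0.393), and the difference ran from -2.38 without satellite replicate 1 to -0.73 without satellite replicate 3. Hoxb6, a gene of the trunk and limb bud, was at 3.95, 3.77 and 3.08 on the iPax3 arrays, 4.84, 3.55 and 4.25 on the iPax7 arrays and 3.41, 4.93 and 5.32 on the satellite arrays. On this probe the groups overlapped, with a difference of -0.64 ± 0.66 over both lines and a 95% interval of -2.12 to 0.83 (limma, adjusted p = 0.668). Without those same satellite arrays it was -1.22 and -0.26. A second Hoxb6 probe, detected on 2, 2 and 3 arrays, gave -3.16 over both lines. Its iPax3 arrays lay below all satellite arrays (-4.23 ± 1.49, limma, adjusted p = 0.316 with every probe tested by itself), while its iPax7 arrays overlapped them.

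Hoxc10, a gene of the hindlimb level, was at -0.62, 1.36 and -1.86 on the iPax3 arrays, -2.50, 0.93 and -2.41 on the iPax7 arrays and 4.19, 6.78 and -3.03 on the satellite arrays. Satellite replicates 1 and 2 had the highest values of all arrays and satellite replicate 3 the lowest. The difference over both lines of -3.50 ± 1.94 did not pass (limma, adjusted p = 0.418), and was -1.43 without satellite replicate 2 and -6.34 without satellite replicate 3. Hoxd13, the digit gene, was at -0.80, 0.28 and -1.19 on the iPax3 arrays, -0.67, -0.69 and -1.28 on the iPax7 arrays and -0.69, -0.80 and 0.76 on the satellite arrays. The groups overlapped, and the difference of -0.48 ± 0.64 had a 95% interval of -1.92 to 0.96 (limma, adjusted p = 0.751). Without satellite replicate 3 it was 0.017, with the opposite sign.

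Of the 12 genes with 2 probes, counting the opposite-strand probe for Hoxb2, 8 had both probes in the test. The difference of both lines from satellite cells had the same sign on both probes in 7 of the 8, Hoxa3 being the exception with -0.74 on the probe that stands for the gene and 2.24 on the other. Sizes differed more. Hoxb6 gave -0.64 and -3.16, Hoxd13 -0.48 and -2.36, Hoxc10 -3.50 and -0.88, and Hoxa13 -1.50 and -0.08. The second probes of Hoxb6, Hoxd13 and Hoxa13 had adjusted p-values of 0.316, 0.232 and 0.977 in limma. Between the lines the sign was shared in 4 of 8 genes.

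Of the 9 Meis, Pbx and Pknox genes, all 9 were tested and 6 lay higher in re-isolated cells (45.6% of all genes were higher), with a median difference of 0.66 beside -0.16 over all genes, and 1 was called, where 1.04% of all genes were. Meis1, which binds DNA with posterior Hox proteins, was at 3.61, 1.72 and 2.29 on the iPax3 arrays, 2.33, 2.09 and 3.70 on the iPax7 arrays and -0.27, -4.76 and -3.09 on the satellite arrays. The 6 re-isolated arrays all lay above the 3 satellite arrays, of which satellite replicate 2 was not above background. Meis1 rose by 5.33 ± 0.997 over both lines (limma, adjusted p = 0.0449). The difference of each line by itself, 5.25 ± 1.15 in iPax3 (adjusted p = 0.107) and 5.42 ± 1.15 in iPax7 (adjusted p = 0.0981), did not pass, and both passed without satellite replicate 1 (adjusted p = 0.0196 and 0.016). The call was close to the threshold. It was lost in 15 of 20 other settings, including the omission of any array other than satellite replicate 1, and the adjusted p ran from 0.00886 to 0.23. With the probes of Meis1 averaged the difference was 3.09 (adjusted p = 0.0708), and a second Meis1 probe gave 0.85 (adjusted p = 0.718 with every probe tested by itself).

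Meis2, a paralogue known from the proximal limb bud, was at -5.61, -0.19 and 2.35 on the iPax3 arrays, 2.18, 2.09 and 1.81 on the iPax7 arrays and -4.91, -6.27 and -6.73 on the satellite arrays. All iPax7 arrays were above all satellite arrays, and iPax3 replicate 1 was inside the satellite range. The difference of 6.41 ± 1.46 over both lines did not pass (limma, adjusted p = 0.0868). It passed without iPax3 replicate 1 (7.52, limma, adjusted p = 0.0108) and with the probes averaged (5.73, adjusted p = 0.0258). It did not pass in 17 of 20 other settings, with limma's adjusted p up to 0.495. Normexp background correction gave 3.07 (limma, adjusted p = 0.159). A second probe was at -4.93, -3.69 and -3.50 on the iPax3 arrays, -0.71, 0.73 and 0.38 on the iPax7 arrays and -8.85, -6.22 and -5.94 on the satellite arrays. It was not well above background on any satellite array. With these processed signals, its iPax7 mean was at least 39.7-fold higher than in satellite cells. With every probe tested by itself, its adjusted p was 0.0174 for iPax7 and 0.0337 for both lines.

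**Figure D5:**
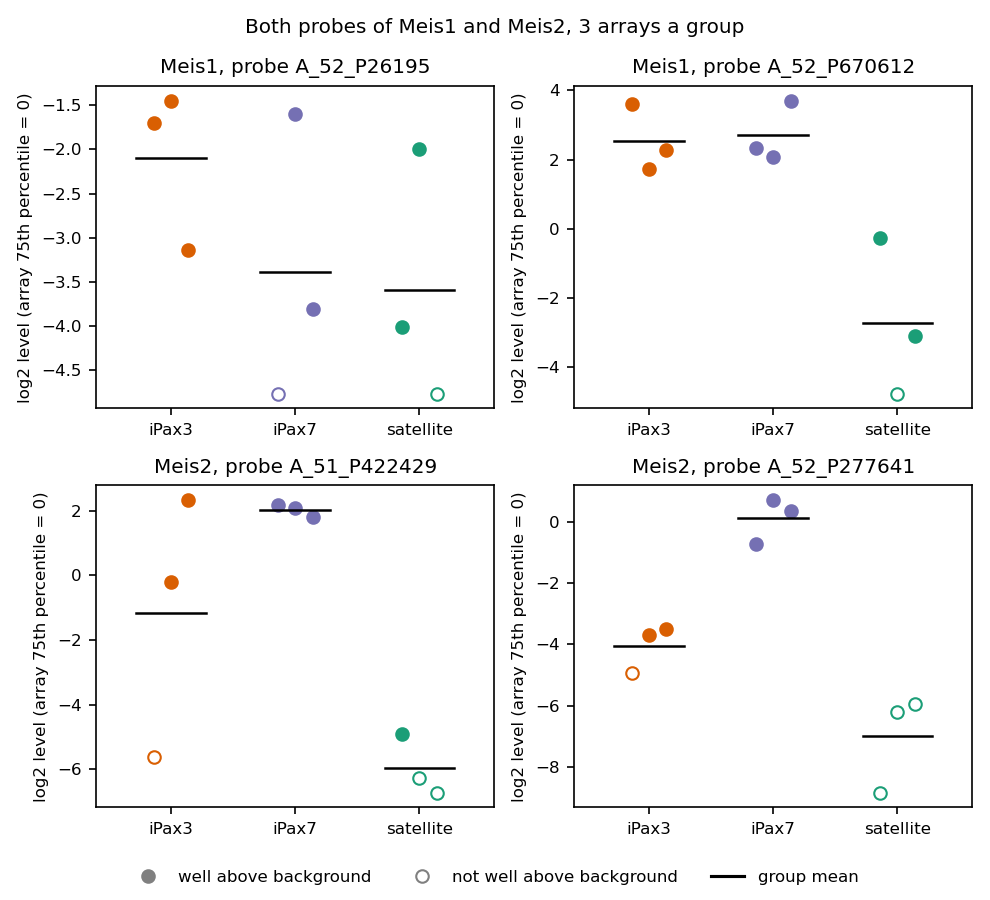
Level on each array (y axis, log2 with the array's 75th percentile at 0) of both probes of Meis1 and of Meis2 in the 3 groups (x axis). Open points were not well above background, and lines are group means. The probe of Meis1 that stands for the gene separates re-isolated from satellite arrays, and its other probe does not.

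Among the regulators that set up or maintain Hox expression, limma called none of the genes tested in any comparison. Of 13 Cdx, retinoic acid and related genes, 11 were tested, 8 lay higher in re-isolated cells, the median difference was 0.40 and 1 had an unadjusted p under 0.05, where 45.6% of all genes were higher and 15.4% had such a p. Of 23 Polycomb and trithorax genes all were tested, 14 lay higher, the median was 0.29 and 2 had an unadjusted p under 0.05, a smaller share than the 15.4% of all genes. Cbx7, a Polycomb subunit that reads methylated histone, had an unadjusted p of 0.00234 between the lines. It was at -7.41, -7.19 and -7.44 on the iPax3 arrays, -1.59, -2.08 and -0.10 on the iPax7 arrays and -0.59, -6.21 and -6.66 on the satellite arrays. It was not well above background on any iPax3 array. With these processed signals, its iPax7 mean was at least 15.5-fold higher, with limma's adjusted p at 0.808. The log2 difference was 6.09, but 2.08 with normexp background correction and 3.11 with the deposited values. Satellite replicate 1 was in the iPax7 range and the other satellite arrays were below background.

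Of 12 noncoding RNAs of the clusters, 2 were tested and limma called neither over both lines, with 0 at an unadjusted p under 0.05 there and 1 in iPax3. Hoxaas2, an antisense RNA of cluster a, was at -1.09, -1.59 and -0.29 on the iPax3 arrays, 3.66, -2.76 and -2.22 on the iPax7 arrays and -1.43, -4.01 and -5.04 on the satellite arrays. Its highest array was iPax7 replicate 1, as for Hoxa11. Hoxd3os1, which lies opposite to Hoxd3, was at 0.00, -2.85 and -2.20 on the iPax3 arrays, -6.31, -6.41 and -1.35 on the iPax7 arrays and -7.85, -3.55 and -6.74 on the satellite arrays, detected on all iPax3 arrays and on 1 array of each other group. Its adjusted p in iPax3 against satellite cells was 0.323 in limma, for a difference of 4.37 ± 1.61. That difference was 1.105 with normexp background correction and 1.84 with the deposited values. Of 10 limb and body position factors, 8 were tested, 6 lay lower in re-isolated cells with a median of -1.099, and limma called none. At an unadjusted p under 0.05 there were 3, where 15.4% of all genes passed, and they are named after their values were seen. Tbx4 and Lmx1b were lower, and Tbx18 was higher, detected on 3 iPax3 arrays, 1 iPax7 array and 0 satellite arrays. Tbx4, the T-box factor of the hindlimb, was at -4.27, -4.19 and -4.06 on the iPax3 arrays, -5.26, -5.05 and -4.91 on the iPax7 arrays and -2.36, -3.28 and -3.40 on the satellite arrays. All re-isolated arrays lay below all satellite arrays, by -2.06 ± 0.62 in iPax7 (limma, adjusted p = 0.232) and -1.16 ± 0.62 in iPax3 (adjusted p = 0.471). The iPax7 difference was -0.99 with normexp background correction and -1.37 with the deposited values. Tbx4 was well above background on 1 iPax7 array and on all arrays of the other groups. Its iPax7 arrays were also below its iPax3 arrays, by -0.90 ± 0.62 at the mean, or -0.14 with normexp background correction.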

How the data were processed

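The deposited scanner tables hold intensity values of 45018 spots per array, which the authors' scanner software (Agilent Feature Extraction, release 10.5.1.1) had detrended and background-subtracted, per the file headers. The processed signal was taken as log2, and the 75th percentile over non-control spots was subtracted per array. Outlier spots were left out, spots of a probe were averaged, and probes well above background on at least 3 of 9 arrays were kept (32953 of 41174). The probe with the highest mean stood for a gene. Testing used lmFit and eBayes of limma 3.58.1 (R 4.3.3) in a fit with a mean per group over all 9 arrays, with Benjamini-Hochberg adjustment over all 22694 genes, and was checked on simulated data. Summed marker levels are log2 of the summed linear levels. The deposited value table, in log2 units of 31918 spots, names limma in the submitters' processing notes and no version. Each column tracked the log2 mean signal of its array (r of at least 0.988), with medians of 7.63 to 7.71, so its scale is uncentred log2. How its columns were adjusted and its spots chosen is not given in the sources used here, and it served as an alternative.

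Members, lists and tests were chosen with earlier results of these data known. Members are named with their values, apart from 1 gene that enters the counts and is not reported here. Values of every array are given for members that passed the test, had no overlap of the re-isolated and satellite arrays or of the lines, or had the highest mean of their cluster, and other lists give values for genes called or with an unadjusted p under 0.01. Hoxd3, Hoxa9 and the other probes or genes shown in full were added after their values were seen. Replicate numbers did not pair the samples, as correlations of deviations between arrays of the same number ran from -0.129 to 0.0625. Scaling, background correction, filter, probe choice, blocks and the omission of each array were varied.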

Additional observations from a re-analysis of the deposited data

How the results depend on the processing

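No Hox gene was called in any comparison under most settings. With the 75th percentile over probes detected on all arrays, 1 feature was called in iPax3 and 1 in both lines against satellite cells, and with probes detected on all 9 arrays only, again 1 and 1, each time the opposite-strand probe beside Hoxb2. With the deposited values the call in both lines was 1, Hoxc12. The count was 0 under the other settings, and 0 to 0 when each array was left out. With the replicate number as a block the count was also 0, and the block is no pairing of the samples. For 41 differences of genes named above, 881 values were recomputed, of which 76 moved by over 1.5 times or changed sign. Normexp background correction made 19 of 41 smaller by that much and the deposited values 12 of 40, while leaving out an array moved 24 of 369. The sign changed in 4 values, all over both lines and none past the threshold: Hoxa3 at 0.75 with probes averaged, 2.24 with every probe by itself and 0.098 without satellite replicate 3 (-1.30 to 0.098 when each array was left out), and Hoxd13 at 0.017 without satellite replicate 3 (-0.76 to 0.017). Hox medians against satellite cells stayed below 0 under every setting, with the lowest count of lower members at 18 of 32, over both lines without satellite replicate 1. The percentile over detected probes moved the median of all genes from -0.16 to 0.15 over both lines and that of Hox genes from -0.75 to -0.44. Over the settings the Hox median ran from -1.06 to -0.53 in iPax3, -0.99 to -0.58 in iPax7 and -1.12 to -0.44 over both lines. With probes detected on all 9 arrays only, 24 Hox genes were tested. Levels below background limit what can be said of Hoxb1, Hoxb7 and Hoxd1.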
